A study of Homo sapiens with 8 samples.

Results

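The glial cell line-derived neurotrophic factor (GDNF) family consists of secreted ligands and the cell-surface receptors that bind them, and 9 of its genes were examined: the co-receptors GFRA1, GFRA2, GFRA3 and GFRA4, the receptor tyrosine kinase RET, and the ligands GDNF, ARTN, NRTN and PSPN. They were found by gene symbol in the platform annotation, and for a symbol with several transcript clusters, the units in which the array reports a gene, the one with the highest mean would have been taken. Each symbol found had 1 cluster. GDNF itself had no named transcript cluster and has no value below, so 8 of the 9 genes are described, among 28946 clusters kept by a filter on low signal and 53617 with values. The family was picked because GFRA3 was already known to be low in the TET1 shRNA clones of these data, so its values in that comparison are a description. The fit to all clusters includes GFRA3, but no p-value of it there is given or used.

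The study measured HEK293T cells, a human embryonic kidney line carrying the SV40 large T antigen, on 8 Affymetrix arrays. TET1 is an enzyme that oxidises 5-methylcytosine in DNA, a step toward removing the methyl mark. In the shRNA part, 2 clones with lentiviral shRNA against TET1 (shTET1#1 and shTET1#2) were set against 1 clone with a control shRNA (shControl). In the plasmid part, cells received TET1-CD, its catalytic mutant mTET1-CD, TET1-FL, the mutant mTET1-FL or an empty vector (Vector), and were sorted by fluorescence 3 days later. Every group is thus 1 array, except TET1 shRNA with 2, and no label names a second culture of any condition. Each shRNA array is 1 clone, so a clone's own make-up and the shRNA it carries cannot be told apart. Signals are log2 values, and array medians lay between 5.47 and 5.55. Of 9 genes listed as marks of the line, 4 had a cluster (PAX2, LHX1, EYA1 and VIM) and all 4 lay above the median on all 8 arrays, while the 2 blood and 2 fibroblast markers with a cluster (CD14, LYZ, LUM and DCN) lay below it on all of them.

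In this family a ligand dimer first binds a GFRA protein, which is held to the membrane by a glycolipid (GPI) anchor, and the pair then recruits RET, whose kinase passes the signal to adaptors and the ERK and PI3K pathways. GDNF pairs mainly with GFRA1, neurturin (NRTN) with GFRA2, artemin (ARTN) with GFRA3 and persephin (PSPN) with GFRA4. GDNF, GFRA1 and RET drive branching of the ureteric bud in the developing kidney and the settling of enteric neurons in the gut, and GFRA3 with artemin acts in sympathetic and sensory neurons.

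GFRA3 spanned the widest range of the family over the 8 arrays, mainly through the shRNA arrays on which it was picked, and its promoter is shown because TET1 acts on methylated CpG sites. The window runs from 250 bases before to 50 bases after the RefSeq start of the gene, on assembly GRCh38.p14, and is read 5′ to 3′ on the gene's strand with each CpG in capitals. It lies at chr5:138274572-138274871 on the minus strand. The corresponding windows of RET (chr10:43076819-43077118, plus strand) and GFRA1 (chr10:116274656-116274955, minus strand) are given for contrast, since RET has the most CpGs and GFRA1 among the fewest of the windows at the members' gene starts.
GFRA3: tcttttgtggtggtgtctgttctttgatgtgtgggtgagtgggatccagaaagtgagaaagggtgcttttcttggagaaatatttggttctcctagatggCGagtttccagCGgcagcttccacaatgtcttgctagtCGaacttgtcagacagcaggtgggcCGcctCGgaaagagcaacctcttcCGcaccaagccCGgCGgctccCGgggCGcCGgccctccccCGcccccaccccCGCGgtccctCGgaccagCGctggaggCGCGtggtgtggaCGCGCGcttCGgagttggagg
RET: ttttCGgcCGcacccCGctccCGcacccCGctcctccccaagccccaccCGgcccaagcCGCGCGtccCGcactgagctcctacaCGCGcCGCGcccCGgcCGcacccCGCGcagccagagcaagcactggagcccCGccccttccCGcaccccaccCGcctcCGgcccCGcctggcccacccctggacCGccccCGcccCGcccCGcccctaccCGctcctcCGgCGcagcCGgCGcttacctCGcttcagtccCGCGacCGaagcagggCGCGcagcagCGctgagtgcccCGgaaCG
GFRA1: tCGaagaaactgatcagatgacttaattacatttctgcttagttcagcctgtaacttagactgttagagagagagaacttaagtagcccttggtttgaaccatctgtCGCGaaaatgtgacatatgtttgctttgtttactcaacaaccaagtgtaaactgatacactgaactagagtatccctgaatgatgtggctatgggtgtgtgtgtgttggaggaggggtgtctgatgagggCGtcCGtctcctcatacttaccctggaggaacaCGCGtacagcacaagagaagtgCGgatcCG
The GFRA3 window held 22 CpGs, of which 19 lay in the 150 bases nearest the 3′ end and 3 in the other 150. Of 35116 such windows of all genes, 37.7% held at least as many, against a median of 14. RET had 41 CpGs in its window, a count that 6.69% of windows reached, and NRTN had 38 (9.91%). GDNF had 32, ARTN 18, GFRA4 10 and GFRA1 and PSPN 9 each. All these windows lie at the gene starts. At further RefSeq starts, windows of GFRA1 held 25, 23 and 4 CpGs, so GFRA1 is CpG-poor only at some of its starts. Further windows of GDNF held 15, 6 and 23, and that of RET 10. The GC box GGGCGG, counted on both strands, occurred 1 time in the GFRA3 window, 5 times in that of RET, 6 times in that of NRTN and 0 times in those of GFRA1, GDNF and PSPN. It also occurred 1 time at a further start of GFRA1 (the window with 23 CpGs), of GDNF (23) and of RET (10). It is present in 45% of all windows. Windows were read for 8 of the 9 genes used here, and GFRA2 was left out of this step. CpG methylation was not analysed here, so these counts describe the sequence only.

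The targeted gene was read by 2 transcript clusters. Cluster 16705381 stood at 8.62 in shTET1#1 and 9.14 in shTET1#2, against 9.29 in shControl. The difference was thus -0.67 in the first clone and -0.15 in the second. Cluster 16715048 stood at 5.27 and 6.20 in the same clones, against 5.71 in shControl. Neither cluster gave a clear deficit in the second clone, which is therefore named below by its label, as the array labelled shTET1#2. In the plasmid arrays 16715048 reached 12.10 with TET1-CD, 12.03 with mTET1-CD, 11.80 with TET1-FL and 11.91 with mTET1-FL, against 5.86 with Vector. Cluster 16705381 stood there at 10.42 with TET1-CD, 11.05 with mTET1-CD, 12.22 with TET1-FL and 12.47 with mTET1-FL, against 9.51 with Vector. TET1-CD minus mTET1-CD was thus -0.63 in 16705381 and 0.071 in 16715048. For FL the wild-type minus mutant differences were -0.25 and -0.11.

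Among the co-receptors, GFRA3, which binds artemin, spanned the widest range. Its cluster 17000428 stood at 5.37 with shTET1#1 and 5.18 in the array labelled shTET1#2, against 8.69 in shControl. Both TET1 shRNA values lay just below their own array medians (-0.100 and -0.37 relative to them). In the plasmid arrays GFRA3 stood at 7.47 with TET1-CD, 6.77 with mTET1-CD, 6.92 with TET1-FL and 6.77 with mTET1-FL, against 6.78 with Vector. The values thus fell into 3 separate levels: the 2 TET1 shRNA arrays at the bottom, the 5 plasmid and vector arrays between 6.77 and 7.47, and shControl alone at the top. The lowest plasmid or vector array was 1.39 above the higher TET1 shRNA array, and shControl was 1.22 above the highest plasmid or vector array. The SD over the 8 arrays was 1.11, which 0.335% of kept clusters reached.

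**Figure D1:**
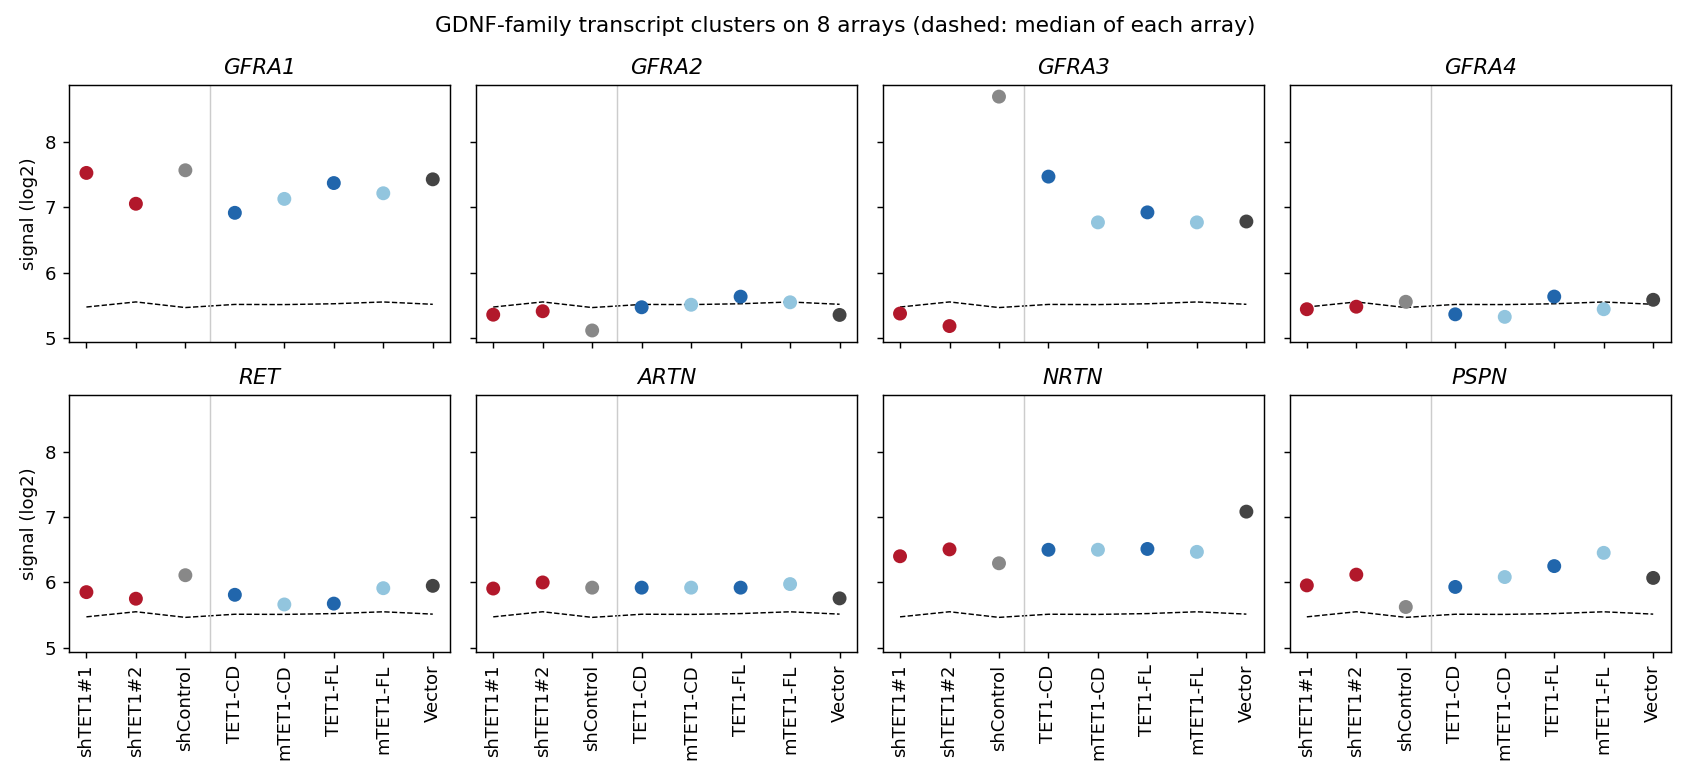
Signal (log2) of the 8 measured family members on each of the 8 arrays, 1 panel per gene and 1 point per array, with TET1 shRNA in red, shControl in grey, wild-type plasmids in dark blue, mutant plasmids in light blue and Vector in black. The dashed line is the median of all transcript clusters on each array. GFRA3 is just below the median in both TET1 shRNA arrays and at 8.69 in shControl, while NRTN stands apart in Vector at 7.08.

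Set against shControl, GFRA3 differed by -3.32 in shTET1#1, with -3.51 in the array labelled shTET1#2, and the fitted mean was -3.41. Since both TET1 shRNA values lay below their array medians, where the deposited values do not show whether a signal is above background, no exact fold is given and neither deficit is set against the other. The first clone's deficit was reached by 0.00345% of kept clusters, which is GFRA3 alone, and the second's by 0.0104%, GFRA3 included. GFRA3 was picked on these values, so the shares are a description and no test. Set against Vector, the deficits were -1.41 and -1.60, a mean of -1.50, which 0.594% and 0.660% of kept clusters reached. Vector was itself 1.91 below shControl. The fitted means were thus -3.41 against shControl and -1.50 against Vector. Both use the same 2 TET1 shRNA arrays on which GFRA3 was picked, so their shared direction is no separate evidence. The vector cells were transfected and sorted and shControl is a lentiviral clone, so treatment and clone cannot be told apart between these 2 arrays.

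Some counts over all transcript clusters show how common the GFRA3 pattern was. Both TET1 shRNA arrays were at least 2-fold below shControl in 111 of 28946 clusters (0.383%), and at least 2-fold below both shControl and Vector in 27 (0.0933%). They were at least 2-fold below every other array in 7 (0.0242%), GFRA3 among them. The order of shControl highest with both TET1 shRNA arrays lowest was seen in 134 (0.463%). GFRA3 was the gene known to be low when the family was picked, and these shares place it without testing it.

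The remaining co-receptors varied less. GFRA1, the main partner of GDNF, stood at 7.53 in shTET1#1, with 7.05 in the array labelled shTET1#2, against 7.57 in shControl. With the plasmids it stood at 6.92 (TET1-CD), 7.13 (mTET1-CD), 7.37 (TET1-FL) and 7.21 (mTET1-FL), against 7.43 with Vector. It was above the median on all 8 arrays, and all 4 plasmid arrays lay below Vector. GFRA4, the persephin co-receptor, was near the median throughout, at 5.44 and 5.48 in the TET1 shRNA arrays against 5.55 in shControl, and between 5.32 (mTET1-CD) and 5.63 (TET1-FL) with the plasmids against 5.58 with Vector. GFRA4 was above its array median on 3 of 8 arrays. GFRA2, the neurturin co-receptor, was above it on 1 array and did not pass the filter. It stood at 5.36 and 5.41 in the TET1 shRNA arrays against 5.12 in shControl, and between 5.47 and 5.63 with the plasmids against 5.35 with Vector. Tested without the filter, it gave 0.19 ± 0.15 (SE) for TET1 plasmids minus Vector (limma adjusted p = 0.691).

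RET, the signalling receptor shared by the co-receptors, was above the median on all 8 arrays but by less than 1 log2 unit. It stood at 5.85 in shTET1#1, with 5.75 in the array labelled shTET1#2, against 6.11 in shControl, which was its highest value. With the plasmids it stood at 5.81 (TET1-CD), 5.66 (mTET1-CD), 5.68 (TET1-FL) and 5.91 (mTET1-FL), against 5.95 with Vector. The whole range of 0.45 was narrow, and 76.3% of kept clusters had an SD over the arrays at least as large.

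The ligands followed none of the GFRA3 levels. Artemin, which signals through GFRA3, was nearly flat: ARTN stood at 5.91 and 6.00 in the TET1 shRNA arrays against 5.92 in shControl, and between 5.92 and 5.98 with the plasmids against 5.76 with Vector. Its value was the same to 6 digits, 5.92097, on 4 arrays (shControl, TET1-CD, mTET1-CD and TET1-FL). Such ties were common in the deposited values, since 26% of kept clusters had the same value on at least 2 arrays. GFRA3 was tied in the same way at 6.76921 with mTET1-CD and mTET1-FL, and GFRA4 on 2 arrays. Neurturin differed mainly in 1 array. NRTN stood at 6.50 (TET1-CD), 6.50 (mTET1-CD), 6.51 (TET1-FL) and 6.47 (mTET1-FL), against 7.08 with Vector. In the shRNA arrays NRTN stood at 6.40 and 6.51, against 6.29 in shControl. Vector was thus the highest of all 8 arrays for NRTN, which was so for 15% of kept clusters. Persephin was lowest in shControl: PSPN stood at 5.96 and 6.12 in the TET1 shRNA arrays against 5.62 in shControl. With the plasmids PSPN stood at 5.93 (TET1-CD), 6.08 (mTET1-CD), 6.25 (TET1-FL) and 6.45 (mTET1-FL), against 6.07 with Vector.

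Counted over the 7 members that passed the filter, both TET1 shRNA arrays lay below shControl for 4 (GFRA1, GFRA3, GFRA4 and RET), where 33.1% of all kept clusters did, and above it for 2 (NRTN and PSPN), where 29.4% did. ARTN lay on both sides. The family was chosen on this comparison and nothing is read from the count. Of the 7, only GFRA3 was at least 2-fold apart in any of the 12 pairs of arrays compared, and it was lower in 5. These were shTET1#1 and the array labelled shTET1#2 against shControl (where 0.905% and 2.16% of kept clusters were at least 2-fold lower), both against Vector (1.85% and 3.09%), and Vector against shControl (2.46%). Within those 12 pairs, the largest difference of another kept member was 0.79, for NRTN between Vector and shControl, while over all 8 arrays PSPN had the wider range, 0.83. In either direction, 1.99% of kept clusters were at least 2-fold apart between shTET1#1 and shControl and 3.28% between the array labelled shTET1#2 and shControl. Against Vector the shares were 3.81% and 4.65% for these clones, and 2.36% between them. They were 0.563% between TET1-CD and mTET1-CD and 0.736% between TET1-FL and mTET1-FL. Against Vector, TET1-CD gave 3.68%, mTET1-CD 3.14%, TET1-FL 3.6% and mTET1-FL 3.03%, and Vector against shControl gave 4.54%.

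The catalytic comparison, wild-type minus mutant plasmid, asks what differs with the enzyme's activity, and it was not used to pick the family. The TET1 signal also differed between these arrays, by -0.63 for CD and -0.25 for FL in cluster 16705381. In 16715048 the differences were 0.071 and -0.11. The part of TET1 level in this comparison was not tested. GFRA3 was the member with the largest difference here, 0.70 between TET1-CD and mTET1-CD (1.62-fold) and 0.15 between TET1-FL and mTET1-FL. For CD, 1.02% of kept clusters were at least as far apart on the same side, and for FL 21.3%. The fitted mean was 0.43 ± 0.18 (SE), with a 95% interval of -0.044 to 0.90, and it did not pass (limma adjusted p = 1, unadjusted p = 0.0668). None of the 7 members passed, and neither did any other cluster (0 of 28946, 0%), with 567 clusters (1.96%) at an unadjusted p under 0.05. In the other 6 members the fitted differences lay between -0.18 for PSPN (95% interval -0.51 to 0.16) and 0.12 for GFRA4 (-0.20 to 0.44). RET differed by -0.044 (-0.43 to 0.34) and GFRA1 by -0.028 (-0.57 to 0.51). The fit had 2 residual degrees of freedom, which come from the difference between the shRNA clones and from the unequal wild-type minus mutant difference in CD and FL.

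**Figure D2:**
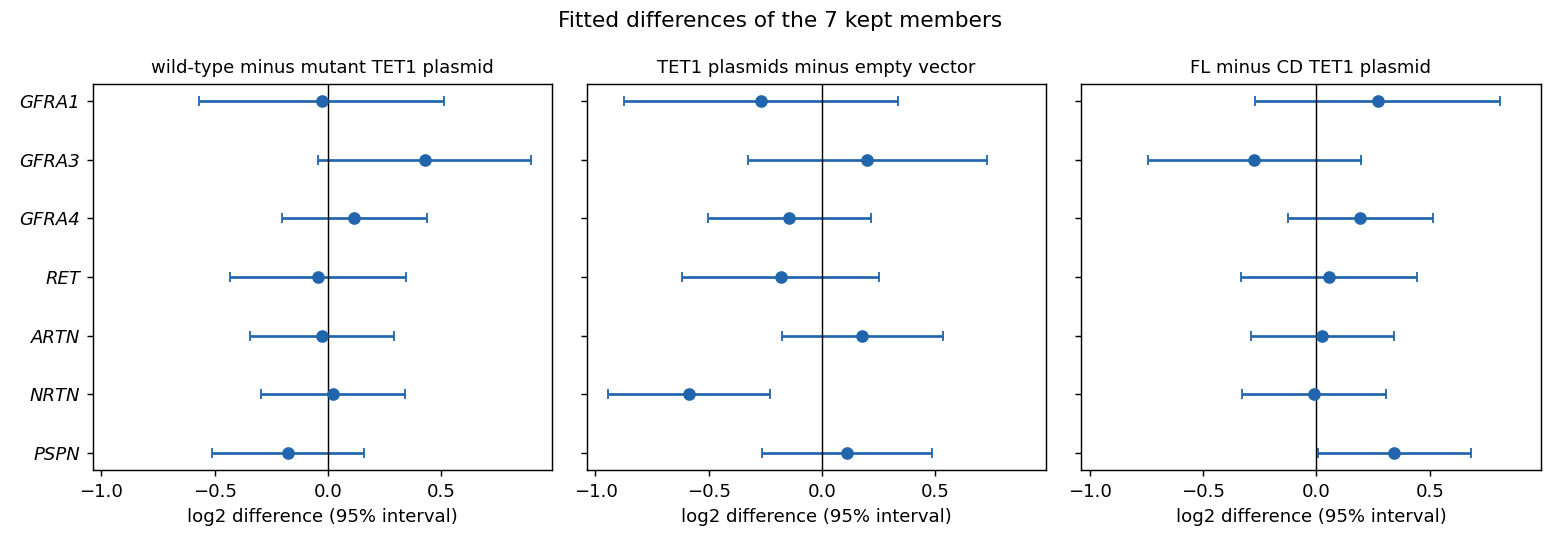
Fitted log2 differences (points) with 95% intervals (bars) for the 7 kept members in the 3 comparisons among plasmid and vector arrays, from the limma fit to all 8 arrays. Intervals cross 0 except for NRTN in TET1 plasmids minus empty vector (-0.95 to -0.23) and PSPN in FL minus CD (0.0083 to 0.68), and no member passed after adjustment.

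In the comparison of the 4 TET1 plasmids with Vector, NRTN had the largest difference of the family, -0.59 ± 0.14 (SE), and all 4 plasmid arrays were lower by 0.57 to 0.62. Its 95% interval was -0.95 to -0.23, and it did not pass the threshold (limma adjusted p = 0.217, unadjusted p = 0.00836). This difference rests on the 1 Vector array, which entered every one of the 4 differences. The fitted difference was 0.20 for GFRA3 (-0.33 to 0.73). GFRA1 stood at -0.27 (-0.88 to 0.33), RET at -0.18 (-0.62 to 0.25) and ARTN at 0.18 (-0.18 to 0.53). GFRA4 stood at -0.14 and PSPN at 0.11. All 4 plasmids were below Vector for 3 of the 7 members (GFRA1, RET and NRTN) and above it for 1 (ARTN), where 27.2% of all kept clusters did so on either side. No cluster passed (0 of 28946, 0%), with 4352 (15%) at an unadjusted p under 0.05.

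Between the constructs, FL minus CD, PSPN was higher with FL by 0.34 ± 0.13 (SE), with a 95% interval of 0.0083 to 0.68, and did not pass (limma adjusted p = 0.354, unadjusted p = 0.0463). Its FL values of 6.25 and 6.45 lay above its CD values of 5.93 and 6.08. GFRA1 (0.27, -0.27 to 0.81) and GFRA4 (0.19, -0.13 to 0.51) likewise had both FL arrays above both CD arrays, and 27.6% of kept clusters shared this order. GFRA3 ran the other way at -0.27 (-0.74 to 0.20), which came from TET1-CD, since the mutant arrays were tied. RET, ARTN and NRTN differed by 0.057, 0.027 and -0.0099. No cluster passed (0 of 28946, 0%), with 3975 (13.7%) at an unadjusted p under 0.05.

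The genes around the family were described from lists written down with earlier results of these data known. None of their kept members passed the limma threshold in either direction in the wild-type minus mutant, plasmid or construct comparison, nor between TET1 shRNA and shControl, where 0 of 28946 clusters (0%) passed and 2294 (7.93%) had an unadjusted p under 0.05. Of the genes listed as RET adaptors and signal relays, 10 of 21 were kept. In TET1 shRNA against shControl their median difference was -0.046, beside -0.010 over all clusters. The largest were SH2D3A (0.45 ± 0.15 SE) and GAB2 (-0.38 ± 0.30 SE). Wild-type minus mutant was led by DOK6 (-0.29 ± 0.33 SE) and GAB2 (0.29 ± 0.24 SE). With the plasmids against Vector, GRB10 stood at -0.45 ± 0.17 (SE, limma adjusted p = 0.329) and DOK6 at -0.26. In FL minus CD, GAB2 stood at 0.55 and SRC at -0.29.

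Genes known to lie downstream of RET or ERK signalling were also listed, and the activity of RET or ERK was not measured. With 10 of 17 kept, 5 had a fitted difference above 0 in TET1 shRNA against shControl, as 47.7% of all clusters did, with a median of 0.071, and the largest were DUSP4, an ERK phosphatase (0.28 ± 0.15 SE), and CCND1 (-0.27 ± 0.50 SE). ETV4 and ETV5, factors that RET induces in the ureteric bud, stood at 5.55 and 5.84 for ETV4 in the TET1 shRNA arrays against 5.70 in shControl, and at 5.68 and 5.59 for ETV5 against 5.38. Against Vector, 8 of the 10 were higher with the plasmids (80%, beside 50.2% of all clusters; median 0.13), a count that rests on the 1 Vector array and includes DUSP4 at 0.0028. It was led by the immediate early gene EGR1 (0.98 ± 0.32 SE, limma adjusted p = 0.277) and ETV5 (0.51 ± 0.21 SE, adjusted p = 0.361). Between the constructs, the chemokine receptor gene CXCR4 stood at 0.83 ± 0.24 (SE) and SPRY2, an inhibitor of receptor tyrosine kinase signalling, at 0.44 ± 0.12 (SE), with limma adjusted p of 0.251 and 0.243. In the wild-type minus mutant comparison 6 of 10 were above 0, beside 50.9% of all clusters, and the median was 0.075, with DUSP4 at -0.29 and ETV4 at 0.19.

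**Figure D3:**
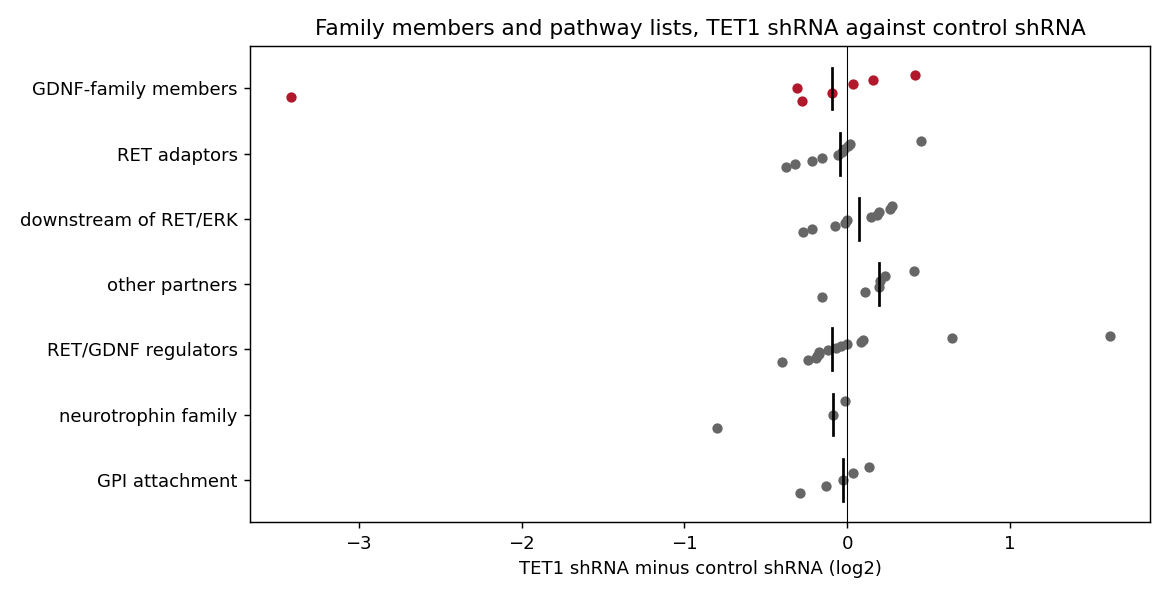
Fitted log2 differences, TET1 shRNA minus control shRNA, for the 7 kept family members (red) and the kept members of 6 lists of pathway genes (grey), 1 point per gene with the median of each list as a black bar. GFRA3 at -3.41 lies far to the left of the other points, and EYA1 at 1.61 is the farthest to the right.

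Other partners of the family included the GDNF-family relative GDF15, whose receptor GFRAL also works through RET. GDF15 stood at 8.36 with TET1-CD, 8.12 with mTET1-CD, 9.11 with TET1-FL and 9.10 with mTET1-FL, against 7.38 with Vector, so that all 4 plasmid arrays were higher. The fitted difference was 1.29 ± 0.20 (SE), the largest of its list, and it did not pass (limma adjusted p = 0.176). Its FL minus CD difference was 0.87 ± 0.18 (SE, adjusted p = 0.170), while wild-type and mutant differed by 0.12. GFRAL, the receptor for GDF15, was below the array median on all 8 arrays, at 3.46 to 3.68. NCAM1, a RET-independent receptor for GDNF, stood at -0.31 ± 0.14 (SE) with the plasmids against Vector and at 0.23 ± 0.16 (SE) in TET1 shRNA against shControl. Between TET1 shRNA and shControl, 5 of the 6 kept genes of the list were above shControl (83.3%, beside 47.7% of all clusters), with a median of 0.20, led by GDF15 at 0.41 ± 0.22 (SE). SDC3 stood at 0.088 in wild-type minus mutant and LRIG1 at 0.25 in FL minus CD.

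Regulators of RET and GDNF transcription in kidney and neural crest were mostly measured, with 14 of 21 kept and all 14 above the median on all 8 arrays. In TET1 shRNA against shControl 4 of the 14 were above 0, beside 47.7% of all clusters, with a median of -0.093 beside -0.010 over all clusters. The largest difference was nevertheless upward. EYA1, a cofactor that acts upstream of GDNF in kidney development, stood at 8.19 in shTET1#1, with 7.66 in the array labelled shTET1#2, against 6.31 in shControl (1.61 ± 0.25 SE, limma adjusted p = 0.424). Vector and the plasmids had EYA1 between 8.15 and 8.65, so shControl was the array that stood low. SOX10, a neural crest factor that activates RET, followed at 0.64 ± 0.22 (SE, limma adjusted p = 0.603). In FL minus CD 10 of 14 were above 0, beside 50.7% of all clusters, with a median of 0.18, and EYA1 (0.48) and EMX2 (0.40) were the largest. HOXD11 stood at -0.47 and SIX2 at -0.30 with the plasmids against Vector, and GATA3 at 0.21 and EMX2 at -0.17 in wild-type minus mutant.

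The neurotrophins, a separate ligand family with its own receptors, had 3 of 10 genes kept, and NTF4 stood at -0.80 ± 0.26 (SE) in TET1 shRNA against shControl (limma adjusted p = 0.588). NGFR stood at -0.089 there, at 0.051 in wild-type minus mutant and at 0.20 in FL minus CD. NTF4 stood at 0.050 in wild-type minus mutant and SORCS2 at -0.14 in FL minus CD. With the plasmids against Vector NTF4 stood at 0.30 and SORCS2 at 0.056. Of the listed genes acting on GPI anchors, on which GFRA proteins depend for their place at the membrane, 5 of 9 were kept. These were GPAA1, PGAP1, PGAP2, PGAP3 and MPPE1. Their median was -0.025 in TET1 shRNA against shControl, and PGAP2 stood at -0.51 ± 0.15 (SE) with the plasmids against Vector (adjusted p = 0.251) while GPAA1 stood at -0.40 ± 0.13 (SE) in FL minus CD (adjusted p = 0.286). PGAP3 stood at -0.29 and GPAA1 at 0.13 in TET1 shRNA against shControl. PGAP2 (-0.13) and MPPE1 (0.13) were the largest in wild-type minus mutant, with PGAP3 at -0.38 against Vector and PGAP1 at -0.33 in FL minus CD.

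Markers of the cells in which GFRA3 is normally used were examined beside it. Of 8 markers of sympathetic and sensory neurons, 6 had a cluster, all 6 kept. Their mean signal was 6.98 in shTET1#1, with 6.99 in the array labelled shTET1#2, against 7.02 in shControl, and ranged up to 7.11 in Vector. Single markers went both ways in TET1 shRNA against shControl, with STMN2 at 0.31 and TH at 0.30, and ISL1 at -0.47 and PRPH at -0.30, and none passed. Of 7 Schwann cell and neural crest markers, 4 had a cluster, with means of 5.85 and 5.94 in the TET1 shRNA arrays against 5.86 in shControl. These means include S100B, which did not pass the filter, and they join opposite differences. In TET1 shRNA against shControl SOX10 stood at 0.64, ERBB3 at -0.58 and FOXD3 at -0.081, and none passed. ERBB3 was at 5.92 and 6.08 in the TET1 shRNA arrays against 6.58 in shControl, its highest array. The part of these cells' genes in the GFRA3 difference was not tested.

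Among 11560 named kept clusters, those whose pattern over the 8 arrays was most like that of GFRA3 were CPNE7, DDN and ROR2, with Pearson r of 0.975, 0.943 and 0.942. These values are the best of many comparisons over 8 arrays that share the same clones, and they are given as a description. CPNE7, a copine that binds membranes with calcium, stood at 6.27 in shTET1#1, with 6.16 in the array labelled shTET1#2, against 7.45 in shControl. It lay between 6.65 and 6.82 with the plasmids, against 6.84 with Vector. ROR2, a receptor for WNT5A, stood at 5.48 and 5.57 in the TET1 shRNA arrays against 6.79 in shControl, and DDN, which encodes dendrin, at 6.01 and 6.03 against 6.90. All 3 had the 3 levels of GFRA3, over a narrower range.

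The genes beside GFRA3 on chromosome 5 were also lowest in the TET1 shRNA arrays, by much smaller amounts. CDC23, a subunit of the anaphase-promoting complex, stood at 8.79 in shTET1#1, with 8.97 in the array labelled shTET1#2, against 9.24 in shControl. CDC25C, the phosphatase that activates CDK1 at mitosis, stood at 6.84 and 7.06 against 7.23. The deficits were -0.44 and -0.26 for CDC23 and -0.39 and -0.17 for CDC25C, beside -3.32 and -3.51 for GFRA3. GFRA3 spans 22242 bases at chr5:138252380-138274621 in RefSeq GRCh38.p14, and the nearest genes with a named cluster were taken on each side.

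**Figure D4:**
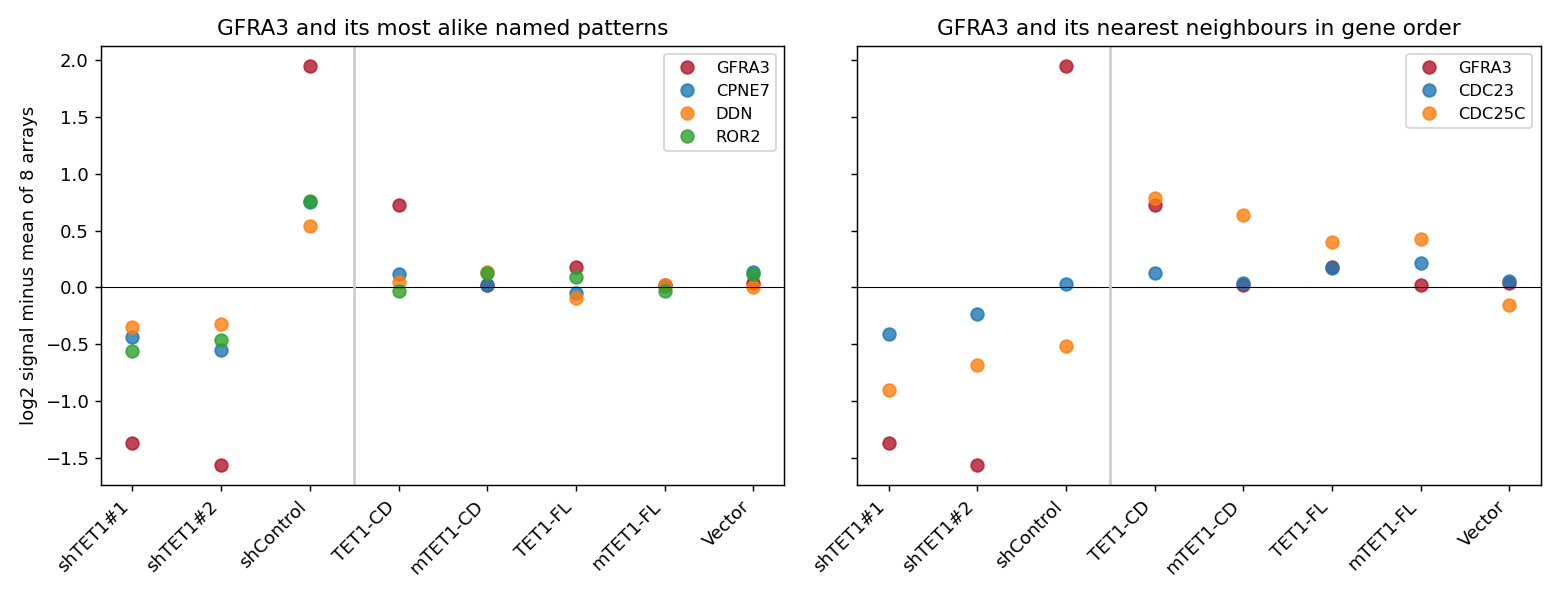
Log2 signal of each gene minus its mean over the 8 arrays, with GFRA3 in red, its 3 most alike named genes at left and its nearest neighbours with a named cluster at right. CPNE7, DDN and ROR2 are highest in shControl and lowest in the TET1 shRNA arrays as GFRA3 is, while CDC23 and CDC25C are also lowest in the TET1 shRNA arrays but not highest in shControl.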

How the data were processed

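Per the submitters' processing notes, the deposited log2 values came from Affymetrix Expression Console 1.3.1 and RMA, with no genome build named in the sources used here. Per the labels' protocols, 100 ng of total RNA was amplified and biotin-labelled. Of 53981 rows, 364 held no value. Clusters were kept where at least 2 of 8 arrays lay above their own median. A single linear model (limma 3.58.1, R 4.3.3) was fitted to the 8 arrays, with terms for construct (plus or minus 0.5) and for the 5 conditions: mutant plasmid, wild-type plasmid, vector, TET1 shRNA and control shRNA. It left 2 residual and 2.89 prior degrees of freedom, so the number of arrays limits every p-value. Adjusted p-values are Benjamini-Hochberg values over 28946 clusters, with a threshold of 0.05. The fit was tested on simulated data. Intervals are 95%.

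Named were all members, TET1, each member's nearest named neighbours and the 2 largest differences per pathway list and comparison. Some list members were named for their role, or as the lowest and highest, after their values were seen. Cell type markers were named only in part. For each kept member with an SD of at least 0.5, which only GFRA3 reached, the 3 most alike patterns were named. Members and lists were chosen with earlier results of these data known. Gene names came from the platform annotation. Alternatives were other scalings, filters, priors and sets of arrays.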

Additional observations from a re-analysis of the deposited data

Results flagged for a closer look

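Within the family, wild-type minus mutant had opposite signs in the 2 constructs for GFRA1, RET and NRTN. Each difference has 1 array on either side, and the difference between constructs was not tested. How often all kept clusters had opposite signs was not counted, so nothing is read from the number of members. GFRA1 stood at -0.21 with CD and 0.16 with FL. RET stood at 0.15 with CD and -0.24 with FL. NRTN hardly differed with CD (-0.00063) and stood at 0.045 with FL. GFRA2, which did not pass the filter, stood at -0.038 with CD and 0.086 with FL.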

How the results depend on the processing

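No analysis paired by replicate number was possible because the groups share fewer than 2 replicate numbers. Through the construct term, the fit already sets each wild-type plasmid against the mutant of the same construct. No member had a second transcript cluster, so that alternative could not be run. The members' fitted differences in the 3 plasmid comparisons kept their sign in 177 of 186 alternative values and passed in none. Many of these signs could not change. Other filters, 1 cluster per symbol, another prior, or the plasmid and vector arrays alone leave a fitted difference as it was. Only other scalings and leaving out plasmid arrays could move it, so the count overstates how stable the signs are. GFRA3 in TET1 shRNA lay between -3.51 and -1.50 over its alternatives, -1.50 being with Vector as reference, and at -3.51 and -3.32 with 1 clone left out. With 1 cluster per gene symbol, and so fewer tests and a refitted prior, the count in TET1 shRNA minus control shRNA was 5, of which 4 lie outside the family (CPPED1, LYPD4, SAGE1 and LINC00665). No call is given for GFRA3 in this comparison, since the family was picked on these values. With each array centred on its median, 1 cluster passed in TET1 plasmids minus empty vector, TET1 16715048 (limma adjusted p = 0.0477), and the cause was not tested. NRTN in that comparison stayed between -0.60 and -0.57, with limma adjusted p from 0.119 to 0.710.

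Without the filter, which adds clusters of low signal, the number at least 2-fold apart was larger, out of 53617 clusters instead of 28946. As a share, such differences were more frequent without the filter between each wild-type plasmid and its mutant. For CD there were 163 of 28946 with the filter and 494 of 53617 without it, and for FL 213 and 789. In pairs with Vector the share changed little, in either direction. The counts were 1300 for shTET1#1 and 1877 for the array labelled shTET1#2 against shControl, 1969 and 2392 for the same arrays against Vector, and 1413 between these clones. They were 494 for TET1-CD against mTET1-CD and 789 for TET1-FL against mTET1-FL. Against Vector they were 1937 (TET1-CD), 1746 (mTET1-CD), 1938 (TET1-FL) and 1653 (mTET1-FL), and 2287 for Vector against shControl. Low signal limits GFRA2, GFRA4, RET and ARTN, whose values lay close to the array medians, and GFRA3 in both TET1 shRNA arrays, where it lay below them.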

Other observations

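Beside NRTN on chromosome 19, DUS3L, which encodes a dihydrouridine synthase acting on RNA, differed between the plasmids and Vector in the direction opposite to NRTN. DUS3L stood at 8.49 with TET1-CD, 8.59 with mTET1-CD, 8.16 with TET1-FL and 8.12 with mTET1-FL, against 7.25 with Vector (1.09 ± 0.14 SE, limma adjusted p = 0.162). Vector was thus the lowest array for DUS3L and the highest for NRTN. IPO13, a nuclear transport receptor gene near ARTN, stood at 0.75 ± 0.21 (SE) and CDC25C near GFRA3 at 0.72 ± 0.16 (SE) in the same comparison (limma adjusted p = 0.241 and 0.208). None of these 3 passed the threshold, and all rest on the 1 Vector array. The other neighbours tested there (ATRNL1, XPO7, CDC23, ATRN, ADAM33, ZNF33B, CSGALNACT2, KDM4A-AS1, VMAC and KHSRP) lay between -0.33 for ATRN and 0.35 for CSGALNACT2. CCDC172, LINC02153 and ACER1 did not pass the filter.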
